A study of Mus musculus with 12 samples.

Results

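The adult seminal vesicle of mice that lacked estrogen receptor alpha (aERKO) was compared between males given diethylstilbestrol (DES) as pups and males given vehicle. The members are the 6 arrays of the groups aERKO_vehicle and aERKO_DES, 3 in each, of 12 arrays in the series, chosen by their sample titles. The other 6 arrays are WT_vehicle and WT_DES, the same treatments in wild-type (WT) mice, and are used to show where the 2 genotypes differ. All groups were C57BL/6 males whose seminal vesicles were taken at week 10. DES pups were injected subcutaneously with a daily dose of 2 µg each from day 1, the day of birth, to day 5. Vehicle pups received the corn oil alone. How the receptor was inactivated in aERKO is not given in the sources used here. Whether the 3 samples of each group were different animals is not stated in the labels, and the p-values therefore reflect the spread from sample to sample, part of which may be technical. The comparison asks whether any of the adult response to neonatal DES is seen when the receptor is missing.

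Estrogen receptor alpha, encoded by Esr1, is a transcription factor that binds estrogens and their synthetic mimics such as DES, and then activates or represses genes through DNA elements or partner factors. The seminal vesicle develops from the Wolffian duct under androgens, and its epithelium secretes the bulk of the semen proteins. Exposure of male rodents to DES around birth is known to alter the adult reproductive glands, including the appearance of lactotransferrin, a protein that estrogen induces in the uterus.

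Values are log2 signals from Affymetrix arrays, and a difference of 1 is a 2-fold change. All tests used limma on 20103 genes, with adjusted p below 0.05 as the threshold for a call. Epithelial secretory genes gave some of the highest signals on the 6 aERKO arrays. Svs5 lay between 14.08 and 14.21, Svs4 between 13.82 and 13.96 and Svs2 between 13.42 and 13.55, against a mean of 5.30 for background control probe sets. Smooth muscle (Acta2, 12.78 to 13.13) and luminal epithelium (Epcam, 10.21 to 10.45) were also clear, as the labelled tissue would contain. Markers of neighbouring tissues were uneven over the 6 arrays. Pbsn, best known from the prostate, read 12.05 to 12.71, but Sbp, another prostate product, read 5.54 to 5.79, near background. Among skeletal muscle markers Acta1 read 11.06 to 11.41, Ckm 8.12 to 8.47 and Myl1 5.34 to 5.52, the last again near background. These markers thus do not settle whether either tissue was present, and its part in the results was not tested.

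The targeted gene was lower in aERKO without being at background. Esr1 read 7.01, 7.09 and 6.88 on the aERKO_vehicle arrays and 6.81, 6.99 and 6.90 on the aERKO_DES arrays, while all 6 WT arrays lay between 7.55 and 7.80. The 2 genotypes did not overlap. Where the probes lie relative to the altered part of the gene is not given in the sources used here, and this residual signal is no measure of intact receptor.

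One array stood apart. Across genes, aERKO_DES 3 correlated with the other 5 aERKO arrays at r = 0.983 to 0.992, whereas those 5 correlated with each other at 0.992 to 0.997. Its 4 hybridization controls averaged 11.36, and the lowest of the other 5 arrays averaged 11.64. Several set and list medians are given with and without it. Differences of single genes include it.

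No gene of the aERKO seminal vesicle passed the test after neonatal DES. Of 20103 genes tested, 0 were called in either direction (0%), and the smallest adjusted p was 0.999. At an unadjusted p below 0.05 there were 264 genes (1.31%), 94 of them higher (0.468%) and 170 lower (0.846%) in aERKO_DES. The 3 aERKO_DES values lay entirely above the 3 aERKO_vehicle values for 313 genes (1.56%) and entirely below them for 916 (4.56%), 1229 in all (6.11%). In WT, the same test called 8828 genes (43.9%), 4151 higher (20.6%) and 4677 lower (23.3%). The WT split depended on scaling, with 3515 higher and 7135 lower after quantile normalization, 3409 and 7110 with equal array medians, and 8347 and 350 with the hybridization controls, while aERKO had 0 calls under each.

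The absence of calls came with narrow intervals. The median gene's 95% confidence interval reached 0.20 (1.15-fold) to either side of its difference. For 20050 genes, 99.7%, the whole interval lay within a 2-fold change in either direction, and for 53 it did not. The differences themselves were small: the 5th and 95th percentiles over genes were -0.15 and 0.13, and the standard deviation over all genes was 0.090 in aERKO against 0.634 in WT. A difference of at least 1 was found for 2 genes in aERKO, Nt5c2 and Ptgs2, and for 1034 in WT. Changes smaller than the interval of a given gene were not detectable with 3 arrays a group, and a call needed more than that. The intervals are not adjusted for the number of genes tested. They excluded 0 for the 264 genes with an unadjusted p below 0.05, none of which was called.

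**Figure D1:**
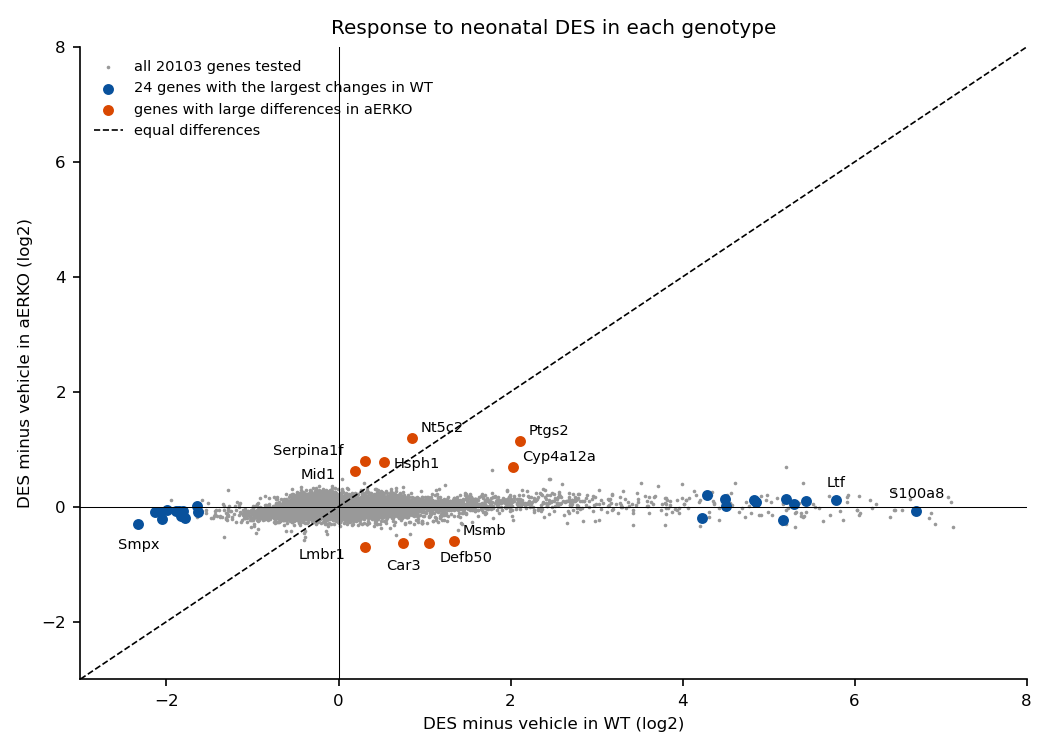
Each point is a gene, with its DES minus vehicle difference in WT on the horizontal axis and in aERKO on the vertical axis, both in log2 units; the dashed line marks equal differences. Blue points are the 24 genes with the largest changes in WT and orange points the genes named for large differences in aERKO; the WT differences reach beyond 6 while 2 genes, Nt5c2 and Ptgs2, exceed 1 in aERKO.

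The genes with the largest DES increases in WT were followed first. They were chosen by their WT change. The test of the difference between responses uses the same WT arrays, so the choice itself favours a call. S100a8 and S100a9 encode calcium-binding proteins that are abundant in neutrophils. S100a8 read 3.90, 3.52 and 3.84 in aERKO_vehicle and 3.49, 3.90 and 3.66 in aERKO_DES. The 2 groups overlapped fully, below the background controls, with a difference of -0.07 ± 0.15 (SE; 95% interval -0.40 to 0.26). In WT the increase was 6.72, and the responses of the 2 genotypes differed by -6.79 (limma adjusted p = 6.6e-10). S100a9 differed by 0.13 in aERKO (-0.21 to 0.47) and by 5.20 in WT.

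Ltf, which encodes lactotransferrin, an iron-binding secreted protein, gave the same picture. Its signals were 6.38, 6.17 and 6.44 in aERKO_vehicle and 6.19, 6.25 and 6.90 in aERKO_DES. The 2 lower aERKO_DES values lay inside the vehicle range and aERKO_DES 3 above it. The difference was 0.12 ± 0.20 (-0.32 to 0.56), whereas WT rose by 5.78, and the responses differed by -5.66 (limma adjusted p = 2.4e-08). Sprr2f, a small proline-rich protein of cornifying epithelia that estrogen induces in the uterus, read 4.88, 4.75 and 4.99 in aERKO_vehicle and 4.66, 4.66 and 5.35 in aERKO_DES. Its difference was 0.01 (-0.55 to 0.58), against 4.51 in WT. These aERKO signals lay around the background mean of 5.30, where a small change could be hidden.

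Cxcl13, a chemokine that draws B cells, read 6.74, 6.61 and 6.06 in aERKO_vehicle and 6.18, 6.93 and 6.58 in aERKO_DES. The groups overlapped, with a difference of 0.09 (-0.45 to 0.63), against 5.44 in WT. Ighg2b, an immunoglobulin heavy chain constant region, differed by 0.04 in aERKO (-0.12 to 0.21) and by 5.29 in WT. Il1b, an inflammatory cytokine, differed by 0.08 (-0.36 to 0.53) and by 4.85. Serpina3n, an acute-phase protease inhibitor, differed by 0.14 (-0.28 to 0.57) and by 4.50.

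The remaining genes of this set were Gsdmc2 and Gsdmc3, gasdermins that are close relatives and may share probe signal, Retnlg, a neutrophil product, and Prol1, a secreted proline-rich protein. Gsdmc2 read 5.31, 5.06 and 5.17 in aERKO_vehicle and 4.91, 5.01 and 5.95 in aERKO_DES, where only aERKO_DES 3 was above the vehicle range. Gsdmc3 behaved alike, with 5.98 on aERKO_DES 3 and 4.86 to 5.23 on the other 5 arrays. Retnlg differed by -0.19 (-0.72 to 0.34). In aERKO the group means of Gsdmc2, Gsdmc3 and Retnlg lay at or below the background level, so small changes could be hidden. Prol1 had the widest interval, -1.57 to 1.10, and for it the data leave a 2-fold change possible in either direction. None of the 12 was called in aERKO. All 12 responses differed between genotypes (limma adjusted p from 3.2e-11 to 0.00078), by a test that shares the WT arrays used to choose them.

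Promoter sequence is shown for 3 of these genes because their response in WT was large, none was seen in aERKO, and a half-site of the estrogen response element lies in the window. The half-site searched was GGTCA, read on both strands (TGACC on the other), in the 250 bases before each RefSeq gene start of mouse build GRCm38.p6. Capitals mark the half-site.

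Ltf, chr9:111019042-111019291, plus strand: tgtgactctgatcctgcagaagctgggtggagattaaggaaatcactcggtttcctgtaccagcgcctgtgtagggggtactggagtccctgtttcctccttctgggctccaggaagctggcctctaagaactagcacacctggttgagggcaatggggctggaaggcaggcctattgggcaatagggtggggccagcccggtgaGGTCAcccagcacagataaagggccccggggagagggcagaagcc
Sprr2f, chr3:92364937-92365186, plus strand: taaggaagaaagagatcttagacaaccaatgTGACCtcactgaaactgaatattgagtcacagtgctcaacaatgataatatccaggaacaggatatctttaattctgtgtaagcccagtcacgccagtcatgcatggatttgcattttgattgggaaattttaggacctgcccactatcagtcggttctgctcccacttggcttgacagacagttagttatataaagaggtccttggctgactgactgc
Cxcl13, chr5:95956689-95956938, plus strand: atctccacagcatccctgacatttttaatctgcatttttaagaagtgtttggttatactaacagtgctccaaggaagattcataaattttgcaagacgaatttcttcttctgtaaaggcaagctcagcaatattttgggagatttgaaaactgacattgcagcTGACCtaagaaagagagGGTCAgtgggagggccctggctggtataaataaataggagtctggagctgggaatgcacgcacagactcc

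In Ltf the half-site began 45 bases before the start, in Sprr2f 219 bases before it, and in Cxcl13 there were 2, at 87 and 70 bases. Among the 10 of the 12 genes that had a window, 5 held a half-site. Retnlg and Prol1 were among these and are not shown. These letters are common: 35.2% of all 32851 windows held them, as did 32.6% of the 631 windows of genes raised at least 2-fold in WT and 38.5% of the 91 windows of genes lowered as much. The full palindrome, GGTCA and TGACC with 3 bases between, was in 0.0639% of all windows and in 0 of those of either set. A match is a description of the letters and not of binding.

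The genes with the largest DES decreases in WT also stayed near their vehicle level. Smpx, a small muscle protein, read 9.003, 9.126 and 9.019 in aERKO_vehicle and 8.991, 8.860 and 8.413 in aERKO_DES. Every aERKO_DES value lay below every vehicle value, yet the difference of -0.29 (-0.70 to 0.11) did not pass the test. In WT the fall was -2.33, and the responses differed by 2.03 (limma adjusted p = 0.00013).

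Gad2, a glutamate decarboxylase, read 10.11, 10.17 and 10.13 in aERKO_vehicle and 10.30, 10.21 and 9.63 in aERKO_DES. Arrays 1 and 2 were therefore above the vehicle range and aERKO_DES 3 below it, for a difference of -0.09 (-0.57 to 0.39) against -2.13 in WT. Egf, the epidermal growth factor, read 9.51, 9.67 and 9.26 and then 9.06, 9.75 and 9.45, a difference of -0.06 (-0.52 to 0.41) against -1.997. Slc26a3, a chloride and bicarbonate exchanger, differed by -0.19 against -1.79, and Orm3, an acute-phase plasma protein, by 0.01 against -1.64. None of the 12 genes was called in aERKO, and their differences ran from -0.29 to 0.01. All 12 responses differed between the genotypes (limma adjusted p from 0.00013 to 0.013). These genes too were chosen on the WT arrays that enter this test.

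**Figure D2:**
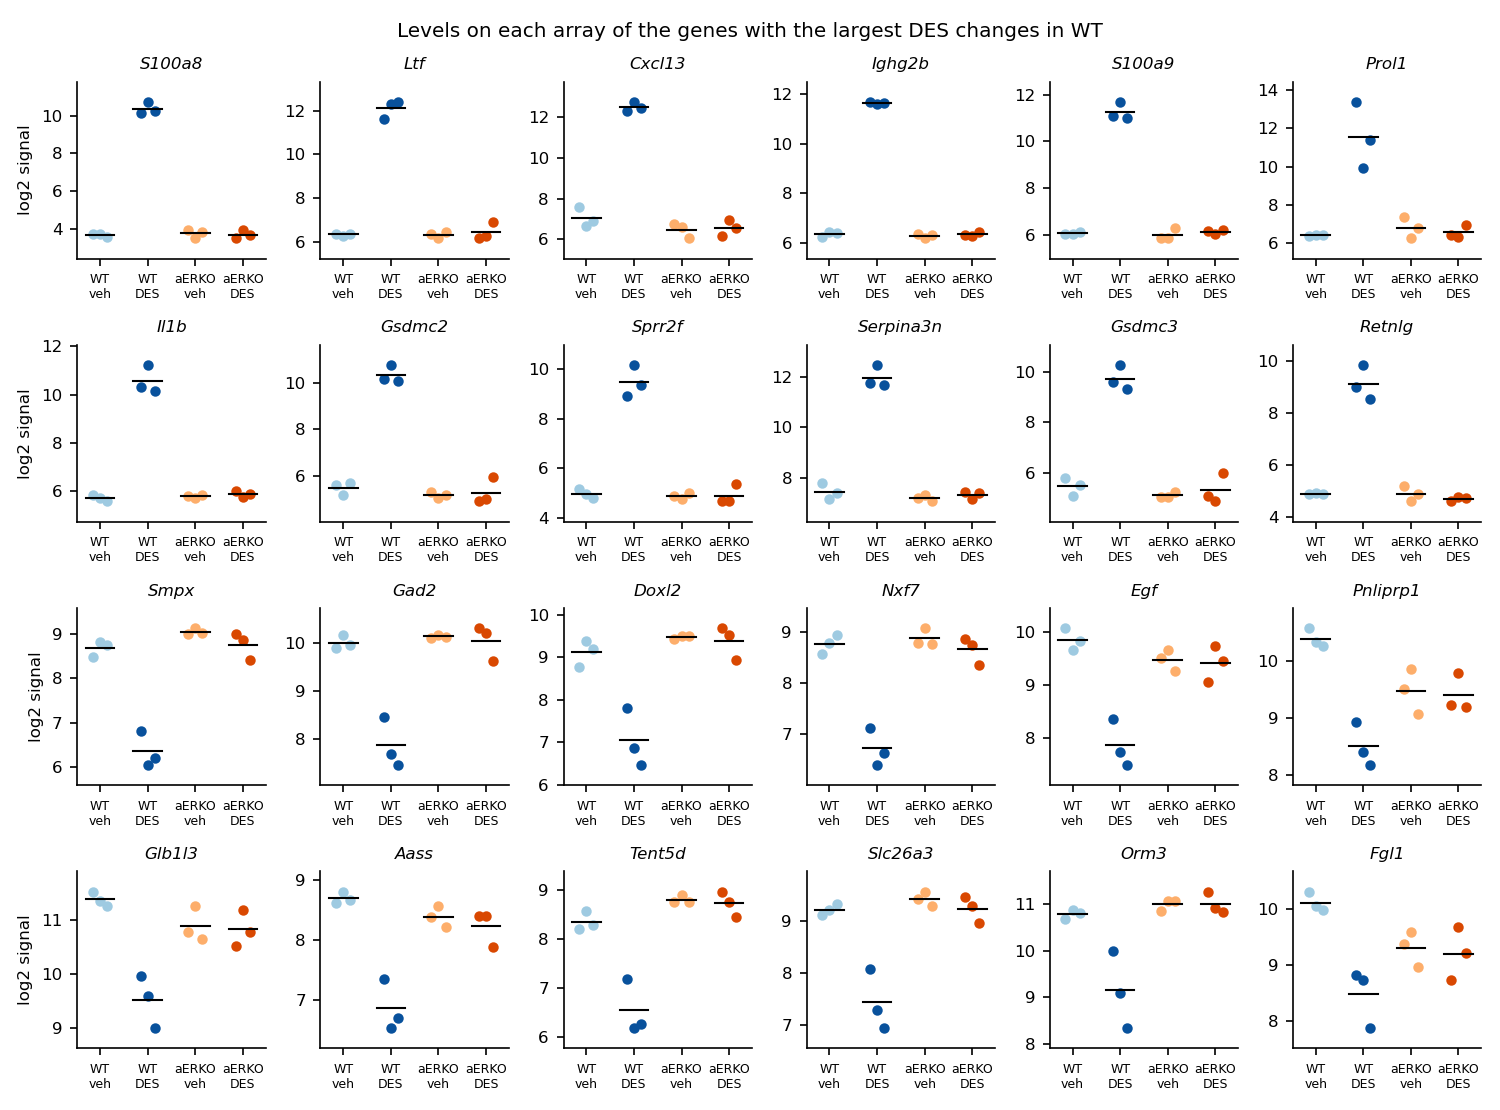
Log2 signal of each array for the 12 genes with the largest increases (upper rows) and the 12 with the largest decreases (lower rows) after DES in WT; points are arrays, 3 a group, and bars are group means. WT_DES stands apart in every panel except Fgl1, where 1 aERKO_DES array (8.72) lies among the WT_DES arrays, while aERKO_vehicle and aERKO_DES lie at about the same level.

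The same held over the whole sets. In WT 921 genes were called at least 2-fold higher (4.58%) and 107 at least 2-fold lower (0.532%). For the 921, the median difference was 1.66 in WT and 0.05 in aERKO, with a range of -0.43 to 0.68 in aERKO and 628 of the 921 above 0. Of all genes tested, 44.3% lay above 0 in aERKO, with a median of -0.01. In aERKO 0 of the 921 were called and 11 had an unadjusted p below 0.05, which is 1.19% of the 921 against 1.31% of all genes. The aERKO interval excluded the WT difference for all 921 and lay within a 2-fold change for 914. The genes were chosen for a large WT difference, whose own error is not counted here. With a stricter filter, above the array median on at least 9 arrays, 590 of the 921 remained, with an aERKO median of 0.04. The filter used admits genes that are high on 3 arrays alone. Where such genes lie at or below background in aERKO, as S100a8, Sprr2f, Gsdmc2, Gsdmc3 and Retnlg do, a small change could be hidden. The difference between the responses was itself called for 918 of the 921, by a test that uses the WT arrays that chose these genes. The other 3 were Ctse, Nlrp10 and Tmem100, named because their count was small.

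For the 107 genes lowered in WT, the median was -1.19 in WT and -0.11 in aERKO. In aERKO 95 of the 107 leaned downward, as did 11188 of all 20103 genes tested. The difference between responses was called for 101, again with the WT arrays that chose the genes. The exceptions were Dgat2l6, Fut9, Gm2115, Mir8115, Sval2 and Zfp791. Without aERKO_DES 3 the aERKO medians were 0.02 for the raised and -0.02 for the lowered genes, and 60 of the 107 lay below 0. Without aERKO_DES 2 they were 0.07 and -0.19, with 678 of the 921 above 0 and 97 of the 107 below 0. Without aERKO_DES 1 they were 0.04 and -0.17. With array weights, whose estimation did not converge, 432 of the 921 lay above 0 and 44 of the 107 below 0. Shifting the arrays to the hybridization controls adds the same amount to every gene's difference. The median over all genes was then 0.12. That of the raised genes was 0.18 with 854 of 921 above 0, and that of the lowered genes 0.02 with 47 of 107 below 0. Counts above or below 0 thus depend on scaling, while the position of a set relative to all genes did not change with this shift. Over all genes tested, the 2 responses differed for 4678 (23.3%), lower in aERKO than in WT for 2837 (14.1%) and higher for 1841 (9.16%). The lower and higher counts were 2594 and 4283 after quantile normalization, 2407 and 3823 with equal array medians, and 2805 and 133 with the hybridization controls.

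The 24 named genes with the smallest unadjusted p in aERKO whose groups did not overlap are described by their values, since none passed the test. They were chosen on the aERKO arrays. Those arrays also enter the test of the difference between responses, so the choice itself favours a call there. The lower group included Commd5, a COMM domain protein, at 8.58, 8.61 and 8.46 in aERKO_vehicle and 8.35, 8.27 and 8.35 in aERKO_DES. Its difference was -0.23 (-0.37 to -0.09), 0.999 as an adjusted p, and -0.07 in WT. Cers3, which makes ceramides with very long acyl chains, read 7.849, 8.137 and 7.888 and then 7.683, 7.604 and 6.997, lowest on aERKO_DES 3. Its difference of -0.53 (-0.87 to -0.19) was the largest in size of the 24, and WT differed by -0.39.

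Pclaf, a partner of the replication clamp PCNA, read 5.89, 5.92 and 5.89 in aERKO_vehicle and 5.62, 5.63 and 5.75 in aERKO_DES. Its difference of -0.23 stood opposite to 0.55 in WT, and the responses differed by -0.78 (limma adjusted p = 0.00013). Spry2, an inhibitor of receptor tyrosine kinase signalling, differed by -0.23 in aERKO and 0.14 in WT, and here too the responses differed, by -0.37 (limma adjusted p = 0.021). Ndufa8, a subunit of respiratory complex I, Tubb2a, a beta tubulin, Dusp23, a phosphatase, Tmem30b, a lipid flippase subunit, Dap, H2ac18, a histone H2A, Usp2, a deubiquitinase, and Ppp1r11, an inhibitor of protein phosphatase 1, lay between -0.32 and -0.16.

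The higher group included Cxcl10, a chemokine induced by interferon, at 5.58, 5.73 and 5.74 in aERKO_vehicle and 5.98, 5.90 and 6.30 in aERKO_DES. Its difference was 0.37 (0.03 to 0.71), the largest of the 12, and WT rose by 1.24. The responses differed by -0.87 (limma adjusted p = 0.014). Kcnk9, a potassium leak channel, read 5.878, 6.135 and 6.148 and then 6.159, 6.361 and 6.502, a difference of 0.29 (0.05 to 0.52) against -0.23 in WT. Chordc1, a co-chaperone of Hsp90, differed by 0.23 and P4ha1, a collagen prolyl hydroxylase, by 0.27. Rab3b, Chst2, Cplx3, Smim6, Apold1, Pdxp, Cd8b1 and Kcnmb1 lay between 0.16 and 0.23.

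**Figure D3:**
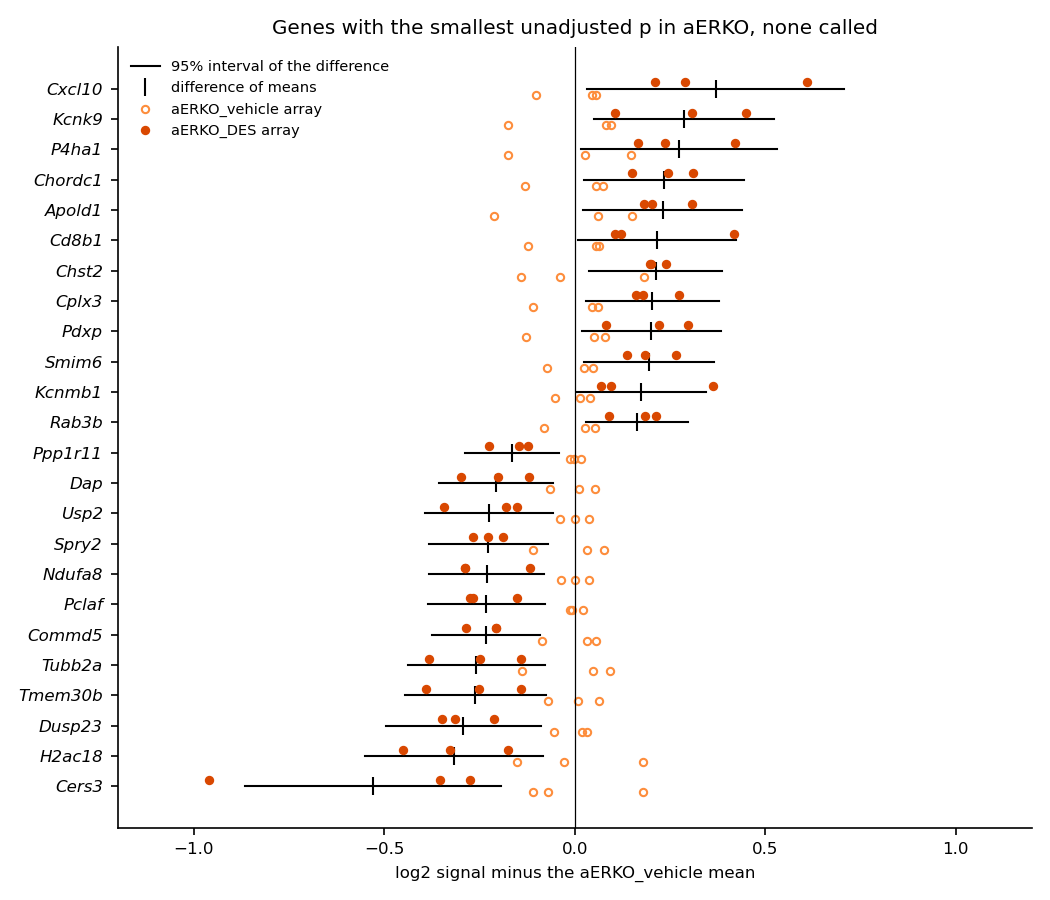
For the 24 named genes with the smallest unadjusted p in aERKO, log2 signal minus the aERKO_vehicle mean: open circles are aERKO_vehicle arrays, filled circles aERKO_DES arrays, vertical ticks the difference of means and horizontal lines its 95% interval. The differences run from -0.53 for Cers3 to 0.37 for Cxcl10, and none was called.

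The smallest unadjusted p over all genes in aERKO, 0.00132, was reached by Gm22245 and Igkv5-39, which the naming rule leaves out and which were chosen after their values were seen. Gm22245, a provisional gene, read 6.78, 6.79 and 6.72 in aERKO_vehicle and 7.01, 7.03 and 7.01 in aERKO_DES, with no overlap and a difference of 0.26 (0.12 to 0.39). Igkv5-39, an immunoglobulin light chain segment, read 4.48, 4.62 and 4.83 in aERKO_vehicle and 5.54, 5.28 and 5.16 in aERKO_DES, around the background level of 5.30. The groups did not overlap, the difference was 0.68 (0.32 to 1.04), and it was not called, whereas WT rose by 5.20.

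Larger differences occurred in genes that varied between arrays of 1 group. These genes were chosen after their values were seen. Nt5c2, a cytosolic nucleotidase, read 7.78, 8.01 and 7.68 in aERKO_vehicle and 9.73, 7.81 and 9.49 in aERKO_DES. Arrays 1 and 3 were high and array 2 lay in the vehicle range, so the difference of 1.19 (0.41 to 1.97) was not called. Without aERKO_DES 2 it was 1.79 and was called (limma adjusted p = 0.000504). In WT, all 3 DES arrays were higher than vehicle, by 0.85, and the difference between the responses, 0.34, was not called.

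Mid1, a ubiquitin ligase gene that spans the pseudoautosomal boundary of the mouse sex chromosomes, read 9.04, 9.13 and 8.90 in aERKO_vehicle and 8.99, 10.05 and 9.89 in aERKO_DES. Here arrays 2 and 3 were high and array 1 was not. The difference was 0.62 (0.18 to 1.06), and without aERKO_DES 1 it was 0.95 and was called (limma adjusted p = 0.0087). A second probe set of Mid1 had the same order at lower signal, 7.26, 7.63 and 7.59 in aERKO_DES against 7.30, 7.34 and 7.25. Lmbr1, which holds a distant limb enhancer of Shh in an intron, read 7.49, 7.57 and 7.35 and then 6.25, 7.42 and 6.65. Its arrays 1 and 3 were low, the difference was -0.69 (-1.19 to -0.20), and the responses differed by -1.002 (limma adjusted p = 0.042).

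Another set read well above the other aERKO arrays on aERKO_DES 3. Ptgs2, the inducible cyclooxygenase, read 9.93 there and 6.52 to 6.65 on the other 5 arrays. Cyp4a12a and Cyp4a12b, near-identical fatty acid hydroxylases whose probe signals cannot be separated with certainty, read 8.99 and 8.66 there. Their highest values on the other 5 arrays were 6.21 and 6.45. Serpina1f, Hsph1, a heat shock protein, and Pfkfb3, a regulator of glycolysis, read 8.51, 10.20 and 8.94 on this array. On the other 5 aERKO arrays Serpina1f read 5.97 to 6.36 and Pfkfb3 7.15 to 7.52. Hsph1 read 8.33 and 8.44 on aERKO_DES 1 and 2, above its vehicle values of 8.13 to 8.27. Some WT arrays were higher still, with Ptgs2 at 10.53 and Serpina1f at 9.38 on WT_vehicle 1, Pfkfb3 at 8.97 on WT_vehicle 3 and Cyp4a12a at 9.47 on WT_DES 1. Of all genes tested, 13 lay at least 2-fold from the mean of the other 5 arrays on aERKO_DES 3, against 2 to 8 for each other array.

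Msmb and Defb50, secreted proteins of the male tract, varied in both groups. Msmb read 7.52, 9.53 and 9.51 in aERKO_vehicle and 7.18, 7.87 and 9.69 in aERKO_DES, and its interval ran from -3.30 to 2.09. Defb50 read 9.23, 10.54 and 10.75 and then 8.71, 9.19 and 10.71, with an interval from -2.20 to 0.93. For these genes the spread within a group was larger than the difference between groups.

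**Figure D4:**
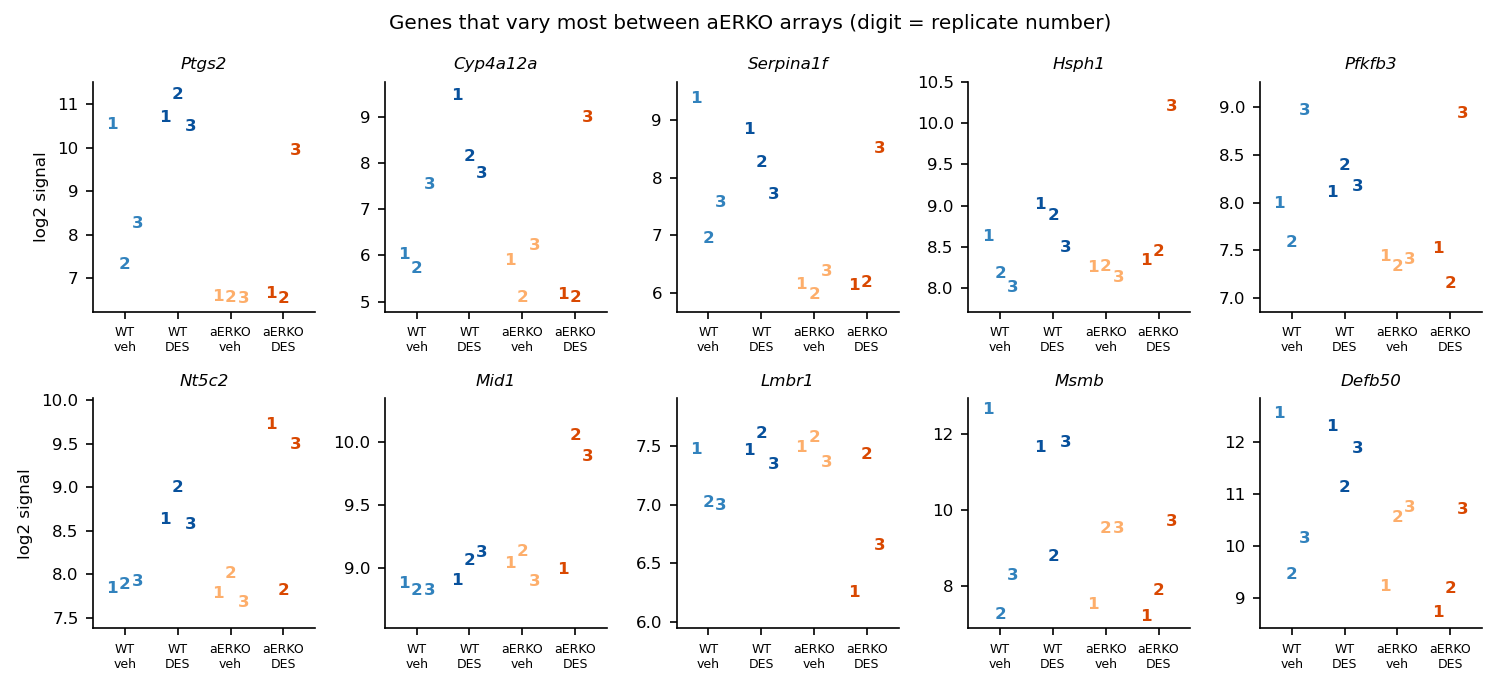
Log2 signal on each array for 10 genes that varied between aERKO arrays, with the replicate number as the plotting symbol. Among the aERKO arrays, Ptgs2, Cyp4a12a, Serpina1f, Hsph1 and Pfkfb3 are well above the rest on aERKO_DES 3. Nt5c2 is so on aERKO_DES 1 and 3, and Mid1 on aERKO_DES 2 and 3. For some of these genes WT arrays reach similar or higher signals.

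Gene lists of tissue functions and cell types covered 641 tested genes in 37 lists. In aERKO 0 lists had a called member, and 10 of the 641 genes had an unadjusted p below 0.05, 1.56% against 1.31% of all genes. List medians ran from -0.13 to 0.13. Over all genes tested the median was -0.01 and 44.3% of differences lay above 0. Shares of list members above or below 0 are read against that. Of the 15 secretory proteins tested, 0 were called, the median was -0.02, and the members lay between -0.05 and 0.11. In WT, 8 of these were called lower and 2 higher, with a median of -0.24. The brightest, such as Svs5 and Svs4, read near the highest signal of the aERKO arrays (14.46 to 14.53), where a change may be compressed. They differed by -0.01 and -0.06 in WT. The 29 estrogen-responsive genes of the female tract had a median of 0.01 in aERKO and lay between -0.12 and 0.15. In WT 13 of them were called higher and 4 lower.

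Steroid receptors and their targets moved little in aERKO. Pgr, the progesterone receptor and a classical estrogen target, read 6.18, 6.06 and 5.94 in aERKO_vehicle and 6.08, 6.25 and 6.09 in aERKO_DES. The groups overlapped, with a difference of 0.08 (-0.13 to 0.30). WT rose by 0.67, and the responses differed by -0.59 (limma adjusted p = 0.010). Esr2, which encodes estrogen receptor beta, differed by -0.01 (-0.16 to 0.15) in aERKO and by -0.42 in WT. The 19 androgen-responsive genes had a median of -0.04 in aERKO, with 0 called, against 7 called higher and 9 lower in WT.

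Each immune list and the fibroblast list held more called increases than decreases in WT, and had a small median in aERKO. All 26 macrophage and dendritic cell genes were called higher in WT, with a median of 2.16. In aERKO 0 were called and the median was 0.09, with 22 of 26 above 0. Lyz2, a macrophage lysozyme whose close copy Lyz1 may share its signal, read 8.24, 8.58 and 8.19 in aERKO_vehicle and 8.99, 8.27 and 8.59 in aERKO_DES, a difference of 0.28 (-0.13 to 0.69) against 4.13 in WT. For the 17 neutrophil genes the medians were 0.05 and 2.08, and for the 17 B and plasma cell genes 0.08 and 1.05. Without aERKO_DES 3 the aERKO medians of these lists were -0.05 and 0.003, and without aERKO_vehicle 2 they were -0.01 and -0.002, so their sign rested on single arrays. The 21 fibroblast and matrix genes had medians of 0.10 and 1.34. In bulk tissue, fewer cells of a type and less RNA per cell cannot be told apart.

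The interferon list had the highest median in aERKO, 0.13, with 21 of 23 genes above 0 and 0 called. Relative to the vehicle mean, its median was 0.16, -0.03 and 0.30 on the aERKO_DES arrays and -0.01, 0.03 and -0.01 on the vehicle arrays, so array 2 was not above the vehicle arrays. Without aERKO_DES 3 the median was 0.07. In WT 22 of the 23 were called higher, with a median of 1.24.

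The cell cycle list lay lower on every aERKO_DES array. Its median relative to the vehicle mean was -0.11, -0.11 and -0.10 on these arrays and 0.00, -0.06 and 0.06 on the vehicle arrays. Of its 24 genes 0 were called, and 9 had groups that did not overlap, all lower, where 4.56% of all genes did so. Mki67, a proliferation marker, read 8.39, 8.47 and 8.63 in aERKO_vehicle and 8.27, 7.98 and 7.96 in aERKO_DES, a difference of -0.43 (-0.98 to 0.12) that did not pass the test. WT rose by 1.73 and the responses differed by -2.15 (limma adjusted p = 0.0010). Mcm6, of the replicative helicase, differed by -0.28 and Top2a, a topoisomerase, by -0.24, against 1.03 and 1.13 in WT. After a shift of the arrays to their hybridization controls this median was 0.04, with 0.12 over all genes.

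The luminal epithelial and metabolic lists had medians below 0. Of the 20 luminal epithelial genes 0 were called and the median was -0.10. An unadjusted p below 0.05 was found for 4, all lower, where 0.846% of all genes were so. They were Krt18, Cldn3, Cldn4 and Cdh1, named because of that p. Krt18, a keratin of simple epithelia, read 11.28, 11.43 and 11.49 in aERKO_vehicle and 11.23, 11.22 and 11.09 in aERKO_DES, a difference of -0.22 (-0.41 to -0.03). Cdh1, the epithelial cadherin, differed by -0.16 against 0.64 in WT. The responses differed by -0.80 (limma adjusted p = 0.00010), by a test that shares the aERKO arrays used to name it. All 23 mitochondrial respiratory chain genes lay below 0, from -0.26 for Uqcrc1 to -0.02 for Ndufb5, with a median of -0.09. Without aERKO_DES 3 the mitochondrial median was -0.03 and the luminal one -0.06. Quantile normalization gave -0.05 for both, and the shift to the hybridization controls turned both to 0.04, where all genes stood at 0.12. The 21 basal and squamous epithelial genes had a median of 0.01, with 13 above 0, and -0.06 without aERKO_DES 3.

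The lipid and cholesterol synthesis list had the lowest median, -0.13, and 0 of 16 genes were called. Its median was -0.30 on aERKO_DES 3 and -0.03 and -0.05 on the other aERKO_DES arrays, and without that array the list stood at -0.04. With the hybridization controls it was -0.003. The 14 heat shock genes had a median of 0.09, and 0.04 without it. In the circadian clock list, Nr1d1, a repressor of clock genes, read 8.84, 8.90 and 8.95 and then 9.24, 9.10 and 8.96. Its difference was 0.20 (0.01 to 0.40), with a limma adjusted p of 0.999, and Dbp differed by -0.11. Of the 16 clock genes 0 were called. Groups did not overlap for 6, 3 higher and 3 lower, where 6.11% of all genes did so.

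**Figure D5:**
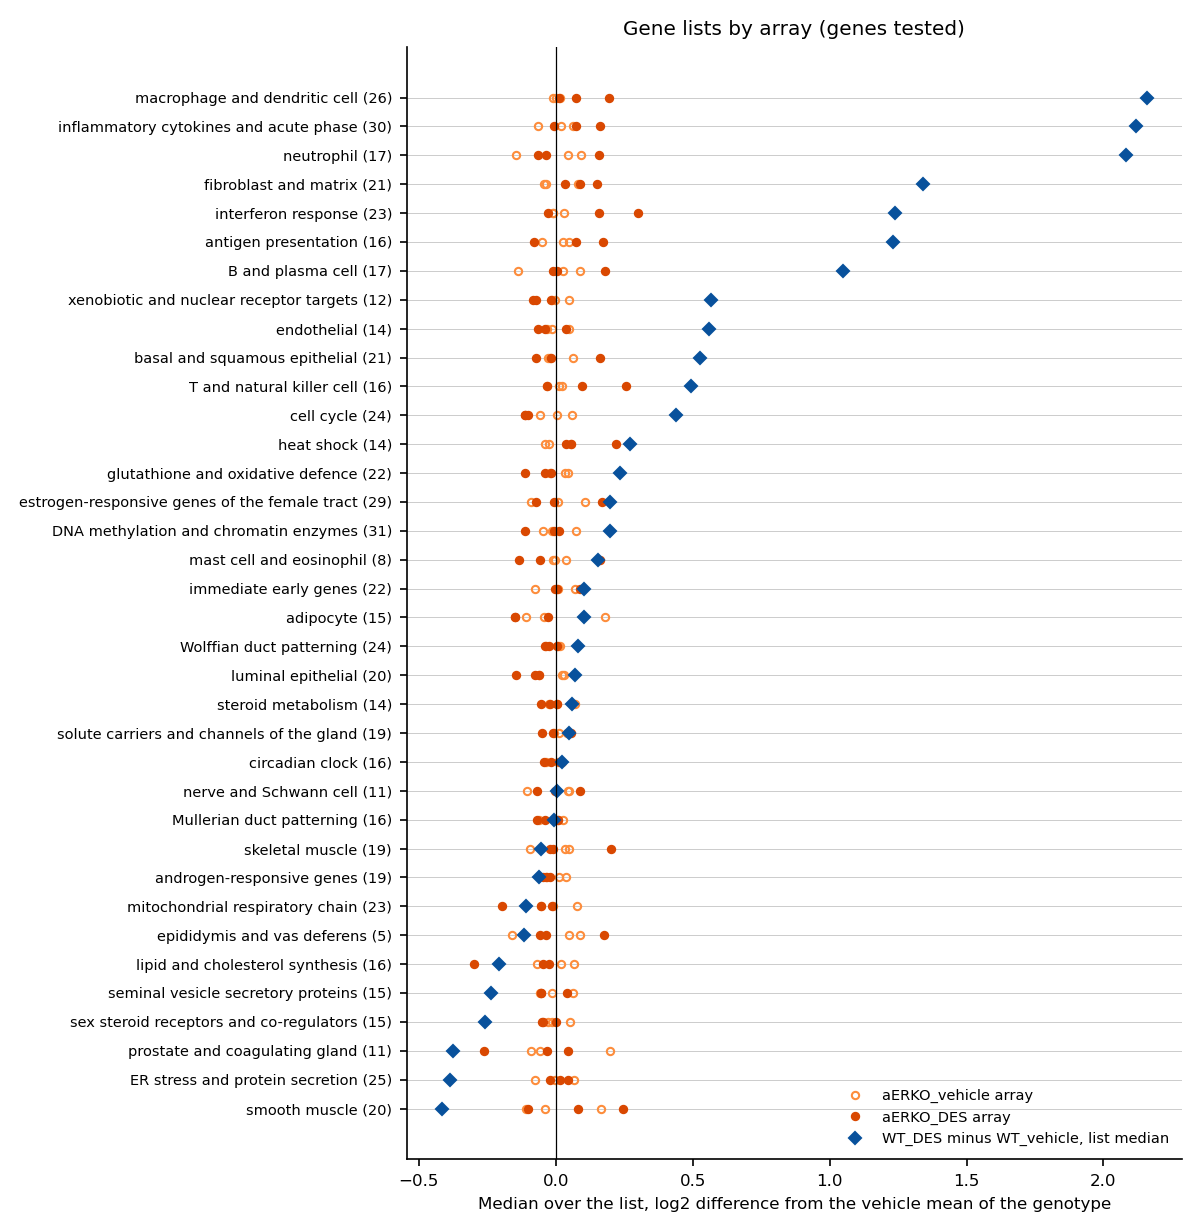
Median over each gene list on every aERKO array, as log2 difference from the aERKO_vehicle mean (open circles vehicle, filled circles DES), with the list median of the WT response as blue diamonds; the number of genes tested is in brackets. For the 36 lists with at least 3 genes tested, the aERKO arrays stay between -0.30 and 0.30, while the WT medians reach 2.16 for macrophage and dendritic cell genes.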

How the data were processed

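The values analysed are the authors' deposited log2 expression values per probe set, which the submitters' processing notes credit to RMA and Affymetrix Expression Console. RMA corrects for background, makes the arrays' distributions equal and combines the probes of a set, so an array-wide change in RNA is removed. Version and settings: not given in the sources used here. The labels' protocols name Trizol for extraction and an input of 300 ng of RNA.

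Of 72688 probe sets, 30604 carried exactly 1 gene symbol and gave 30062 genes, 1121 symbols being updated through the mouse gene table of GRCm38.p6. Several symbols were attached to 2146 probe sets, among them that of Gper1, and these were left unnamed, as were 39938 without a symbol. A gene with several probe sets (430 genes) was represented by its brightest one on average across the 12 arrays. Genes above the array's median on at least 3 arrays were tested, 20103 in all. Array medians lay between 5.95 and 6.14, and the number of arrays limits the precision.

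limma 3.58.1 (lmFit, eBayes) in R 4.3.3 was fitted with a mean per group to all 12 arrays, with two-sided tests, Benjamini-Hochberg adjustment over all genes tested and 8 residual plus 4.33 prior degrees of freedom. The 3 contrasts were DES against vehicle in aERKO, the same in WT, and their difference. Intervals are 95%. The script was tested on simulated data. An exact permutation test of 3 against 3 arrays cannot go below 0.1 and was not used.

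Named genes are, for aERKO and for WT, the 12 called genes with the largest change in each direction whose groups do not overlap, filled by smallest unadjusted p where fewer were called, without provisional names, small RNAs and antigen receptor segments; up to 3 members of each list by smallest p; fixed genes such as Esr1, Pgr and Ltf; and 6 in each direction by the difference between responses. The members, lists and rules were chosen with earlier results of these data known. Alternatives were the filter, the mean of a gene's probe sets, every probe set, trend and robust moderation, the 6 aERKO arrays alone, array weights, 3 scalings, the replicate block and each array left out. The replicate numbers were not taken as pairs, since no label says that they mark a shared litter or day. The correlations of same-numbered aERKO arrays were -0.36, 0.19 and 0.52, which do not settle whether they do.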

Additional observations from a re-analysis of the deposited data

Results flagged for a closer look

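The response to neonatal DES differed between the genotypes for 4678 genes by the interaction test in limma, the difference between the aERKO and the WT response. Each value below is the aERKO response minus the WT response on the log2 scale and passed that test. Genes chosen by their WT change share the WT arrays with this test, which favours a call. For the genes with the largest WT increases it was -6.79 for S100a8, -5.66 for Ltf, -5.35 for Cxcl13, -5.25 for Ighg2b, -5.07 for S100a9 and -5.40 for Prol1, and -4.77 for Il1b, -4.72 for Gsdmc2, -4.49 for Sprr2f, -4.35 for Serpina3n, -4.08 for Gsdmc3 and -4.42 for Retnlg. For the genes with the largest WT decreases it was 2.03 for Smpx, 2.05 for Gad2, 1.98 for Doxl2, 1.83 for Nxf7, 1.94 for Egf and 1.82 for Pnliprp1, and 1.79 for Glb1l3, 1.68 for Aass, 1.73 for Tent5d, 1.60 for Slc26a3, 1.65 for Orm3 and 1.53 for Fgl1.

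Among the fixed genes the difference was 0.42 for Esr2, -0.59 for Pgr, 0.34 for Svs2, -2.15 for Mki67 and 0.41 for Nr1d1. The genes that follow were chosen because this difference was called and was among the largest, so the test adds no support for them. Among genes with an unadjusted p below 0.05 in aERKO, the response was higher in aERKO than in WT by 0.67 for Bckdk, 0.66 for Tmem108, 0.65 for Pldi, 0.62 for Llcfc1, 0.57 for Lrrc38 and 0.55 for Slc12a8. In the other direction the difference was -3.35 for Lyz1, -1.002 for Lmbr1, -0.97 for Neurl3, -0.95 for Psd3, -0.87 for Cxcl10 and -0.80 for Cdh1. For Bckdk, Tmem108 and Slc12a8 both genotypes leaned downward and aERKO less so, whereas for Lmbr1, Neurl3, Psd3 and Cdh1 the difference was negative in aERKO and positive in WT. None of these was called in aERKO, and the WT difference of Lmbr1, 0.31, was not called either.

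One signal came from probe sets outside the named genes. With every probe set tested, 1 was called between aERKO_DES and aERKO_vehicle, with a difference of 1.00. Its identifier marks it as a negative control of the array, 1 of 5222 such probe sets. It read 5.10, 5.28 and 5.00 in aERKO_vehicle and 6.11, 6.09 and 6.19 in aERKO_DES, and between 6.09 and 6.21 in WT_vehicle. In WT_DES it read 5.66, 5.53 and 5.63, below every WT_vehicle value and so in the opposite direction to aERKO.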

How the results depend on the processing

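The count of genes called in aERKO stayed at 0 with no filter or a stricter one, the mean of a gene's probe sets, trend and robust moderation, the 6 aERKO arrays alone, array weights, all 3 scalings and the replicate number as a block. It was 1 with every probe set tested, and from 0 to 1 when single arrays were left out: Mid1 without aERKO_DES 1 and Nt5c2 without aERKO_DES 2. The estimation of array weights stopped before it converged, so every value given with them is provisional. They gave 1955 genes at an unadjusted p below 0.05 and a smallest adjusted p of 0.117. The replicate block gave 0 calls in aERKO. The aERKO arrays numbered 1 did not correlate best with each other, while those numbered 2 and those numbered 3 did.

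The count of genes whose responses differed was 8163 with array weights (4168 higher in aERKO) and 2938 with arrays shifted to the hybridization controls. The cause was not tested. Of 936 values of the named differences under alternatives 804 were called. The values for Esr2, Svs2, Nr1d1, Bckdk, Tmem108, Pldi, Llcfc1, Lrrc38, Slc12a8 and Lmbr1 lost their call under at least 1. For named genes in aERKO 2 of 3005 values were called, those of Mid1 and Nt5c2 above, and 137 values changed sign.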
